A study of Mus musculus with 6 samples.

Results

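The 42 genes of folate, one-carbon and methylation metabolism were followed in posterior mouse embryos of Splotch null and wild type genotype. They were taken as a list of 42 symbols, and their probes were found by gene name among 34967 gene probes on each of 6 one-colour CodeLink arrays, a glass-slide oligonucleotide platform that gives 1 fluorescence intensity per probe. A probe of its own was found for 39 of the 42 genes (47 probes), out of 18858 genes named on the array. The 3 Splotch null arrays and the 3 wild type arrays all carried RNA from embryos at embryonic day 9.5, of a strain labelled LMBc, cut just below the forelimb and kept in RNAlater. Splotch is a mutation of Pax3, a transcription factor of the dorsal neural tube, neural crest and somites. The labels do not name the Splotch allele, do not say whether an array held 1 embryo or several, and name the piece an anterior neural tube in 1 field and posterior tissue in the others, so p-values measure only the spread between these arrays.

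Folate carries single carbon units that cells use to make purines and thymidylate and to turn homocysteine into methionine. Mitochondria feed the pathway from serine and glycine, the cytosol spends the units on nucleotides, and methionine becomes S-adenosylmethionine, the methyl donor for DNA methyltransferases. The pathway is known for its part in closing the neural tube, and folic acid or thymidine is known to lower the frequency of neural tube defects in Splotch embryos.

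Promoter windows from RefSeq (GRCm38.p6, 300 bases around the annotated start of a gene) are given for 4 members. Gldc and Aldh1l1 are shown because the probe that represented each narrowly separated the genotypes. A second Gldc probe did not separate them, and a second Aldh1l1 probe was above background on no array and was not tested. Pfas also separated them but had no window listed. Mthfd1 and Paics are shown because they were the members whose windows held the longer of the motifs searched. Capitals mark ATTA, the core of homeodomain binding, or GTCACGC, a core of paired domain binding, on either strand (TAAT or GCGTGAC on the other); Pax3 has both domains. The genes and motifs were chosen after the array values were seen.
Gldc, chr19:30175392-30175691, minus strand: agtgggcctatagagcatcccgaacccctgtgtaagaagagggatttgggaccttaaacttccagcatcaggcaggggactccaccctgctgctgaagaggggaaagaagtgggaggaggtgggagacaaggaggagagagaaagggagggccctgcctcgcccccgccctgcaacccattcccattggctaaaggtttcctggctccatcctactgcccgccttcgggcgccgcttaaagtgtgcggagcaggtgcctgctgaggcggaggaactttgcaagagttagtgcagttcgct
Aldh1l1, chr6:90550543-90550842, plus strand: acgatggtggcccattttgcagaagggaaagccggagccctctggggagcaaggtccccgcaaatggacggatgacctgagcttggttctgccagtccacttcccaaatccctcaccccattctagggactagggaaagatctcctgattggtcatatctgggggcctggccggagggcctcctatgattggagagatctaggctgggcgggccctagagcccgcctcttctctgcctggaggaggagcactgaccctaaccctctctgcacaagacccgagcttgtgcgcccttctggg
Mthfd1, chr12:76254982-76255281, plus strand: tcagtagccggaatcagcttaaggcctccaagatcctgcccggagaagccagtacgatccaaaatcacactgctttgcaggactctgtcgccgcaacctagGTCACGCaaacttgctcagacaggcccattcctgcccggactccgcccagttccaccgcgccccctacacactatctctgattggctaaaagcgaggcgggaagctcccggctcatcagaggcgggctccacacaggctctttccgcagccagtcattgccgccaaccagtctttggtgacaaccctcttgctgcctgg
Paics, chr5:76951052-76951351, plus strand: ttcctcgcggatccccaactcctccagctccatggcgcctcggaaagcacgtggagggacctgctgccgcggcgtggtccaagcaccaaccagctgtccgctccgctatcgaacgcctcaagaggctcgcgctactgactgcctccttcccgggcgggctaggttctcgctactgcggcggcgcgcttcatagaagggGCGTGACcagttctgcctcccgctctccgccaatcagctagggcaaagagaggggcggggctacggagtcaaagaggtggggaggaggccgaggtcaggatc
The Gldc and Aldh1l1 windows held neither motif, and the Mthfd1 and Paics windows held GTCACGC once each and no ATTA. Windows were listed for 37 of the members, 47 in all. ATTA was in 17 of them (36.2%), against 58% of all 32851 windows, and GTCACGC in 2 (4.26%), against 2.09%. Those 2 are the Mthfd1 and Paics windows above, and whether the shares differ was not tested. The median number of CpG dinucleotides was 18 in member windows, against 7 in all windows. A letter match is no binding site, and its absence says only that the letters are not in that window.

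The arrays had a median raw intensity of 86.4 to 121.1 on Splotch null arrays and 84.3 to 116.3 on wild type arrays, with 66.1% to 71.7% of probes above background. The highest median of each genotype was on Splotch null 3 and wild type 1. Of 8 neural tube and 8 tail bud markers, all were above background on every array where their spot was used, except 1 neural tube marker on Splotch null 2; the spot of T, a tail bud marker, was left out on wild type 2. Splotch null 2 stood apart in 23 visceral endoderm and yolk sac markers, of which 21 were highest there; their summed intensity was 63056 on that array, against 2137 to 4873 on the other Splotch null arrays and 3500 to 9381 on the wild type arrays. The same array was lowest in neural tube markers, with a mean log2 intensity of 8.25, against 9.45 and 9.94 on the other Splotch null arrays and 9.05 to 9.66 on the wild type arrays. Wild type 1 was the highest array for 7 of 8 primitive erythroid markers and for 7 of 8 surface ectoderm markers. Hnf4a, Amn and Cubn were above background on Splotch null 2 alone, and albumin on no array. The number of arrays limits the precision. Pax3, the mutated gene, gave log2 intensities of 10.72, 10.52 and 10.63 on Splotch null arrays, against 10.02, 10.83 and 10.51 on wild type arrays, a difference of 0.17 (SE 0.21). A second Pax3 probe differed by -0.09 (SE 0.20). The groups overlapped on both probes, and the labels do not say which part of the transcript is altered, so these probes check no label.

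None of the 36 members that could be tested passed the test. The fit, limma on the log2 scale with Benjamini-Hochberg adjustment over 24466 probes, called 0 of 24466 probes (0%) and 0 of 14532 genes (0%) at an adjusted p under 0.05, and the adjusted p of every tested member was 0.9998. Unadjusted p-values under 0.05 were found for 0 members, against 207 of all genes (1.42%; 1.01% higher and 0.413% lower in Splotch null embryos). On the log2 scale 20 of 36 members were higher and 16 lower in Splotch null embryos, against 7991 of 14532 genes (55%) higher. The median member difference was 0.057, against 0.017 over all genes. Scaling each array by its median in place of quantile normalization gave 25 of 36 members higher, and the authors' deposited value table gave 26. The median member difference moved to 0.085 and 0.087, and the median over all genes to 0.042 and 0.044. The share of all genes that were higher was not counted under these settings.

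The difference ran from -0.27 (Mat2a) to 0.49 (Folr1), all 36 within 1.5-fold. The upper end rested on 1 array, with Folr1 at -0.04 without Splotch null 2. Mat2a was at -0.075 without wild type 1, but at -0.25 with Splotch null 3 left out as well. The 95% confidence interval of 31 of 36 lay within 2-fold in either direction. All 36 intervals held 0. The median interval reached 1.3-fold either way, the same as over all genes. In simulated arrays with the spread of these, limma recovered 0% of 200 probes changed 1.5-fold, 33% of those changed 2-fold and 84% of those changed 4-fold, over 23319 probes. The simulated noise was drawn independently for each probe, without differences shared by many probes of an array. Recovery on the real arrays may therefore differ. All member differences were thus below a fold change of which none was called in the simulation.

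**Figure D1:**
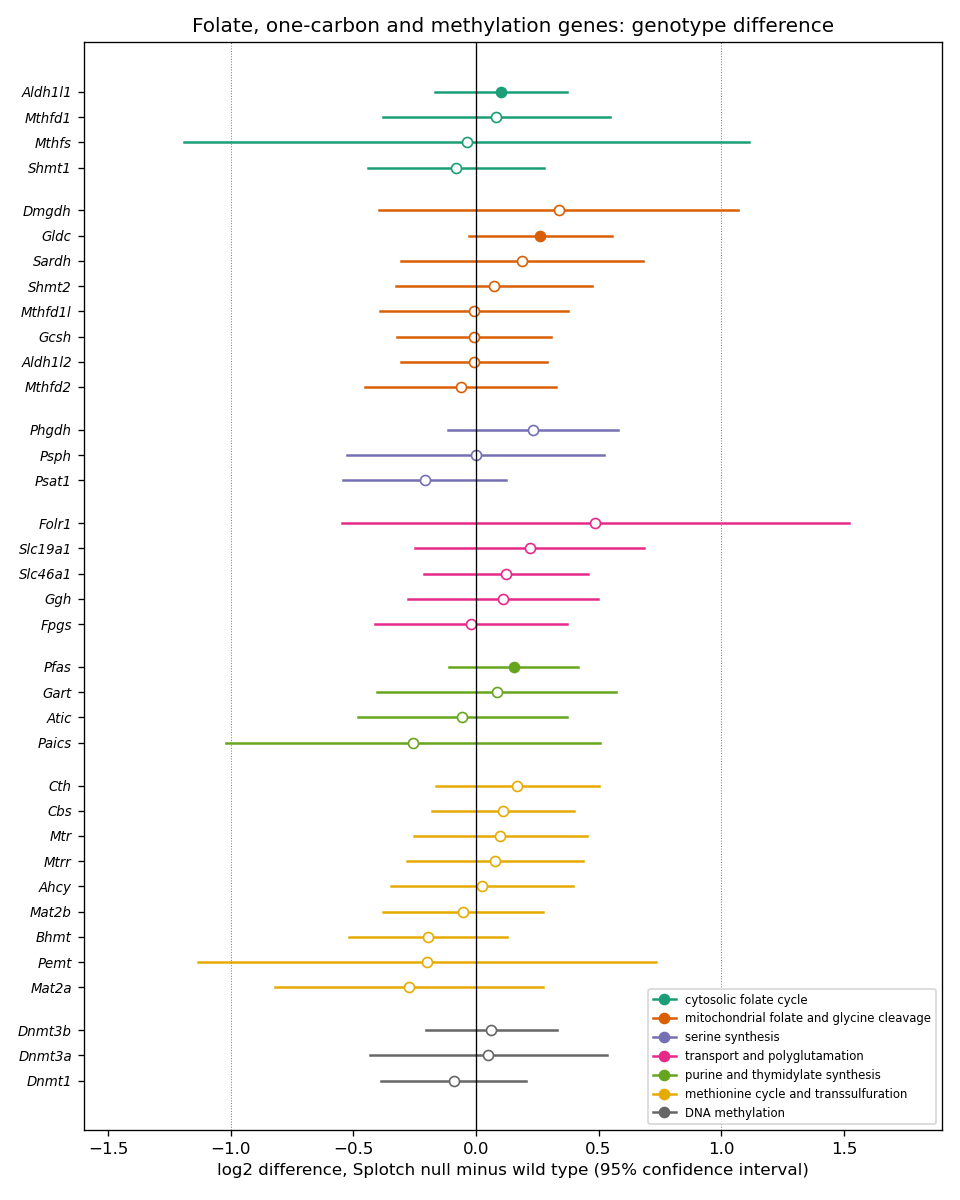
Log2 difference, Splotch null minus wild type, of the 36 tested members, grouped by role, with 95% confidence intervals as bars. Filled points mark the 3 members whose genotypes did not overlap, Aldh1l1, Gldc and Pfas; all intervals hold 0, and dotted lines mark 2-fold.

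Of 34 members measured on all 6 arrays, 3 had every Splotch null array above every wild type array and 0 had every one below. Over all genes, 5.1% did not overlap, 3.21% with Splotch null higher and 1.89% with it lower;  whether the members' share differs from these was not tested. Gldc encodes the decarboxylase of the mitochondrial glycine cleavage system, whose loss causes neural tube defects in mice. Its log2 intensities were 10.36, 10.55 and 10.47 on Splotch null arrays, against 10.13, 10.13 and 10.34 on wild type arrays. The lowest Splotch null array was just above the highest wild type array, and the difference was 0.26 (SE 0.12), or 1.20-fold. In RNA of whole tissue pieces, more cells of a type and more RNA per cell cannot be told apart. A second Gldc probe gave 9.75, 9.98 and 10.58 on Splotch null arrays, against 9.85, 9.82 and 10.10 on wild type arrays, where the groups overlapped and the difference was 0.18 (SE 0.22).

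Pfas, a formylglycinamidine synthase of the purine pathway, had log2 intensities of 11.56, 11.43 and 11.57 on Splotch null arrays, against 11.39, 11.40 and 11.31 on wild type arrays. The groups did not touch, with a difference of 0.15 (SE 0.11). Aldh1l1, which oxidises formyl folate in the cytosol, had 9.98, 9.80 and 9.85 on Splotch null arrays, against 9.73, 9.79 and 9.80 on wild type arrays. Here the groups nearly touched, with a difference of 0.10 (SE 0.11).

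**Figure D2:**
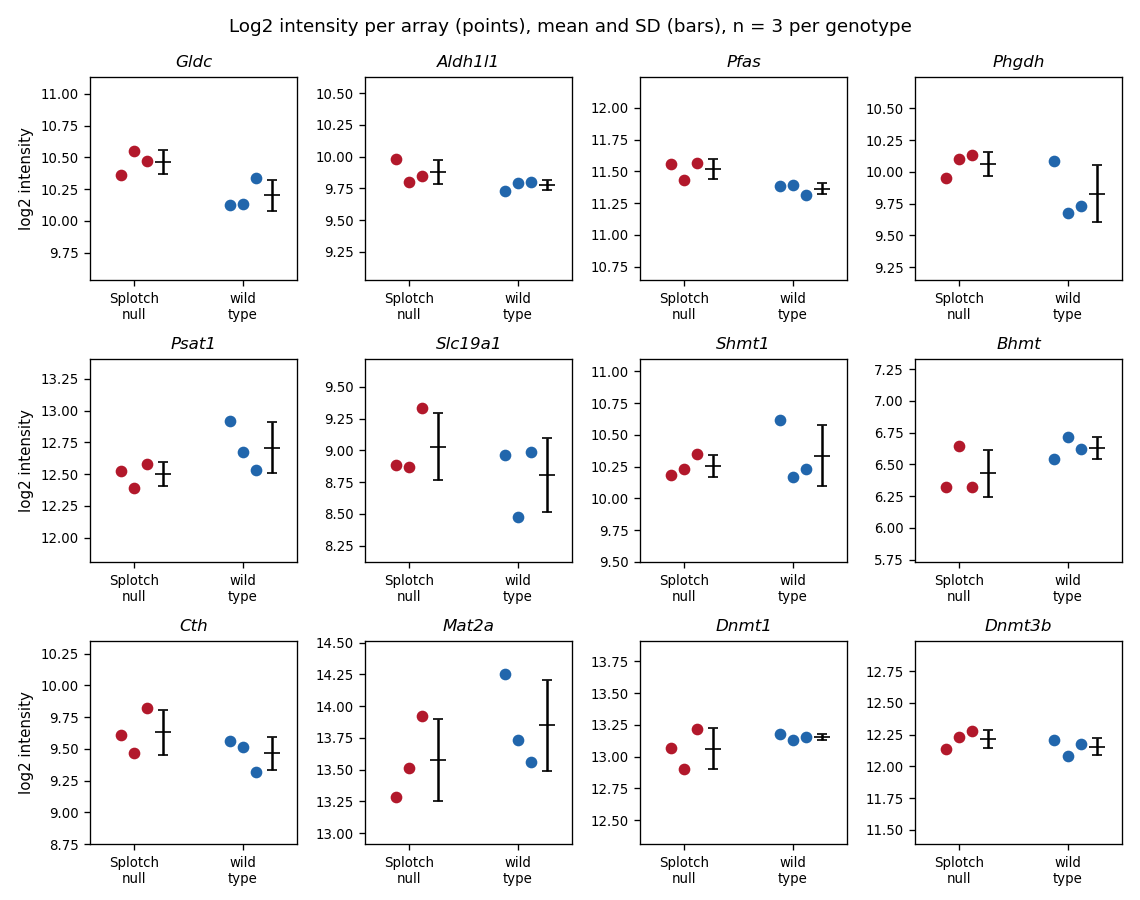
Log2 intensity per array of 12 members, Splotch null left of wild type in each panel; points are arrays, and bars give the mean and SD (n = 3 each). Of these 12, Gldc, Pfas and Aldh1l1 are the ones with groups that do not overlap.

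Among the cytosolic folate genes, 2 of 4 tested were higher and 2 lower. Shmt1, the cytosolic serine hydroxymethyltransferase, had 10.18, 10.23 and 10.35 on Splotch null arrays, against 10.61, 10.17 and 10.23 on wild type arrays, with 1 high wild type array and a difference of -0.08 (SE 0.15). Mthfd1, the trifunctional cytosolic enzyme, differed by 0.08 (SE 0.20). Mthfs, which frees 5-formyl folate for use, spanned the most among them, with 11.32, 11.30 and 9.67 on Splotch null arrays, against 10.12, 11.15 and 11.13 on wild type arrays. It was low on Splotch null 3 and wild type 1, and the genotype difference was -0.04 (SE 0.49). Ftcd, which links histidine breakdown to folate, was above background on Splotch null 2 alone (6.81) and was not tested.

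Among the mitochondrial and glycine cleavage genes, 4 of 8 tested were higher and 4 lower. Dmgdh, which strips methyl groups from dimethylglycine, had 7.02, 7.41 and 8.07 on Splotch null arrays, against 7.17 and 7.16 on wild type 1 and wild type 3; the wild type 2 spot was left out, so the fit used 5 arrays. Splotch null 3 was high and the groups overlapped, with a difference of 0.34 (SE 0.30). Sardh, the sarcosine dehydrogenase, differed by 0.19 (SE 0.21) and was highest on Splotch null 2, at 7.71. Gcsh, the carrier protein of glycine cleavage, differed by -0.01 (SE 0.13). Shmt2, Mthfd2 and Mthfd1l, which take serine to formate in mitochondria, differed by 0.07, -0.06 and -0.01. Aldh1l2, the mitochondrial counterpart of Aldh1l1, differed by -0.01. Mthfd2l and Amt had no named probe.

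Serine synthesis gave 1 of 3 higher and 2 lower. Phgdh, its first enzyme, had 9.95, 10.10 and 10.13 on Splotch null arrays, against 10.08, 9.67 and 9.73 on wild type arrays, and wild type 1 lay within the Splotch null range. The difference was 0.23 (SE 0.15), and a second Phgdh probe gave 0.04 (SE 0.20). Psat1, the transaminase that follows it, had 12.53, 12.39 and 12.58 on Splotch null arrays, against 12.92, 12.68 and 12.53 on wild type arrays, with a difference of -0.21 (SE 0.14). Psph, the phosphatase that ends the route, differed by -0.0013 (SE 0.22).

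Folate transport and retention gave 4 of 5 higher and 1 lower. Folr1, the high-affinity folate receptor, had 8.22, 9.60 and 7.78 on Splotch null arrays, against 7.75, 8.04 and 8.35 on wild type arrays. Splotch null 2 was high, and the other Splotch null arrays lay within the wild type range. The difference was 0.49 (SE 0.44), and -0.04 without Splotch null 2, the array with high endoderm markers.

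**Figure D3:**
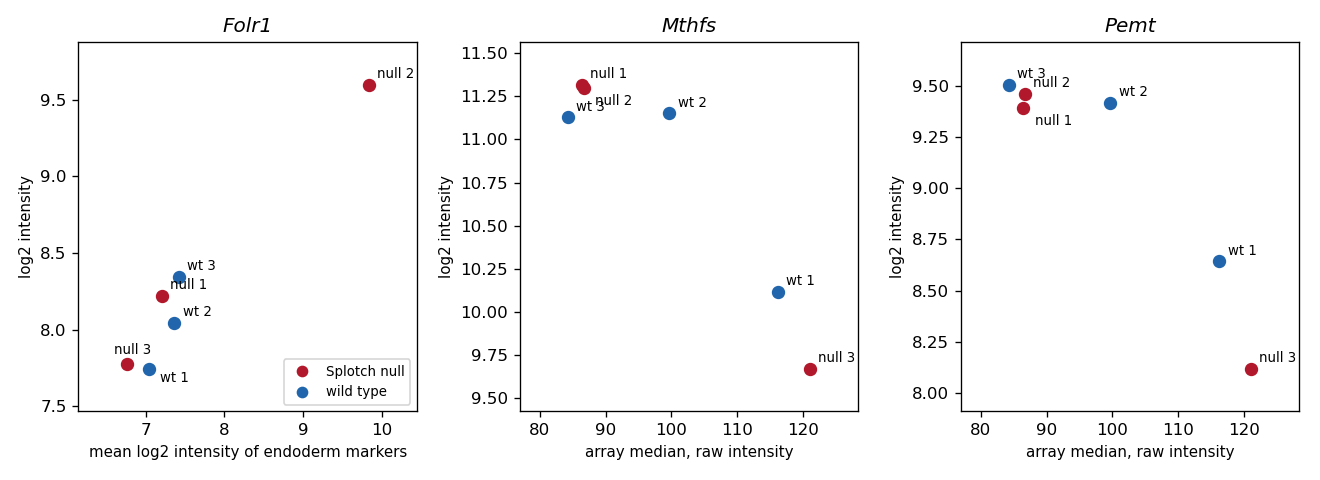
Log2 intensity of Folr1 against the mean log2 intensity of 23 visceral endoderm and yolk sac markers (left), and of Mthfs and Pemt against the median raw intensity of the array (middle and right); each point is 1 array. Splotch null 2 is high on both axes at left, and Splotch null 3 and wild type 1 are low for Mthfs and Pemt.

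Slc19a1, the reduced folate carrier, had 8.89, 8.86 and 9.33 on Splotch null arrays, against 8.96, 8.47 and 8.99 on wild type arrays, with a difference of 0.22 (SE 0.20). Slc46a1, the proton-coupled folate transporter, differed by 0.12 (SE 0.14). Ggh and Fpgs, which remove and add glutamates on folate, differed by 0.11 (SE 0.16) and -0.02 (SE 0.17). Folr2 was not above background on any array and was not tested.

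Purine genes gave 2 of 4 higher and 2 lower. Paics, which acts later in the same route as Pfas, had 12.29 and 13.04 on Splotch null 1 and Splotch null 3, against 13.38, 12.76 and 12.62 on wild type arrays; the Splotch null 2 spot was left out. The difference was -0.26 (SE 0.31) and the groups overlapped. Gart and Atic, the folate-using enzymes of purine synthesis, differed by 0.09 (SE 0.21) and -0.06 (SE 0.18). The probe for Tyms, thymidylate synthase, also named the pseudogene Tyms-ps and was left out of the counts; it gave 13.24, 13.19 and 12.67 on Splotch null arrays, against 12.85, 13.23 and 13.20 on wild type arrays, a difference of -0.06 (SE 0.19).

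The methionine cycle and transsulfuration gave 5 of 9 higher and 4 lower. Bhmt, which methylates homocysteine from betaine, had 6.33, 6.64 and 6.32 on Splotch null arrays, against 6.54, 6.72 and 6.62 on wild type arrays, with a difference of -0.20 (SE 0.14). It was dim, with raw intensities of 25.6 to 55.6, and its spot on Splotch null 1 was near background. The size of its difference depended on the offset added before the log, at -0.36 with an offset of 10 and -0.07 with an offset of 200. Cth, cystathionine gamma-lyase, had 9.61, 9.47 and 9.82 on Splotch null arrays, against 9.56, 9.51 and 9.32 on wild type arrays, with a difference of 0.17 (SE 0.14). The groups overlapped for both. Mat2a, the catalytic subunit that makes S-adenosylmethionine and the lowest member, had 13.29, 13.51 and 13.92 on Splotch null arrays, against 14.25, 13.73 and 13.56 on wild type arrays, with a difference of -0.27 (SE 0.23); it was named after its values were seen.

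Pemt, which makes phosphatidylcholine with methyl groups from S-adenosylmethionine, had 9.39, 9.46 and 8.12 on Splotch null arrays, against 8.64, 9.42 and 9.50 on wild type arrays. Like Mthfs it was low on Splotch null 3 and wild type 1, and the genotype difference was -0.20 (SE 0.40). Over those 2 arrays less the other 4, Mthfs differed by -1.33 (-1.28 on its second probe) and Pemt by -1.06. Of all 14532 genes, 444 were lower there by 1 or more on the log2 scale, and 2 of the 36 members. Most members went the other way: 24 were higher there and 12 lower, with a median of 0.11. Of all genes, 7078 were higher and 7450 lower, with a median of -0.011. These 2 arrays had the highest raw medians, and without them the genotype difference was 0.17 for Mthfs and -0.04 for Pemt. Proliferation markers were also highest on them. Their mean log2 intensity was 12.68 on Splotch null 3 and 12.55 on wild type 1, against 12.07 to 12.22 on the other arrays. Whether the member values follow brightness or these markers was not tested. Mtr, Mtrr, Cbs, Ahcy and Mat2b differed by 0.10, 0.08, 0.11, 0.02 and -0.05. Mmachc was above background on 1 array and was not tested.

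DNA methyltransferases gave 2 of 3 higher and 1 lower. Dnmt1, which copies methylation after replication, had 13.07, 12.90 and 13.22 on Splotch null arrays, against 13.18, 13.13 and 13.15 on wild type arrays, with a difference of -0.09 (SE 0.13). Dnmt3b, a methyltransferase that sets new methylation, had 12.14, 12.23 and 12.28 on Splotch null arrays, against 12.21, 12.08 and 12.17 on wild type arrays, with a difference of 0.06 (SE 0.11). Its second probe gave -0.38 (SE 0.21), so the probes disagreed in sign. Dnmt3a differed by 0.05 (SE 0.21).

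**Figure D4:**
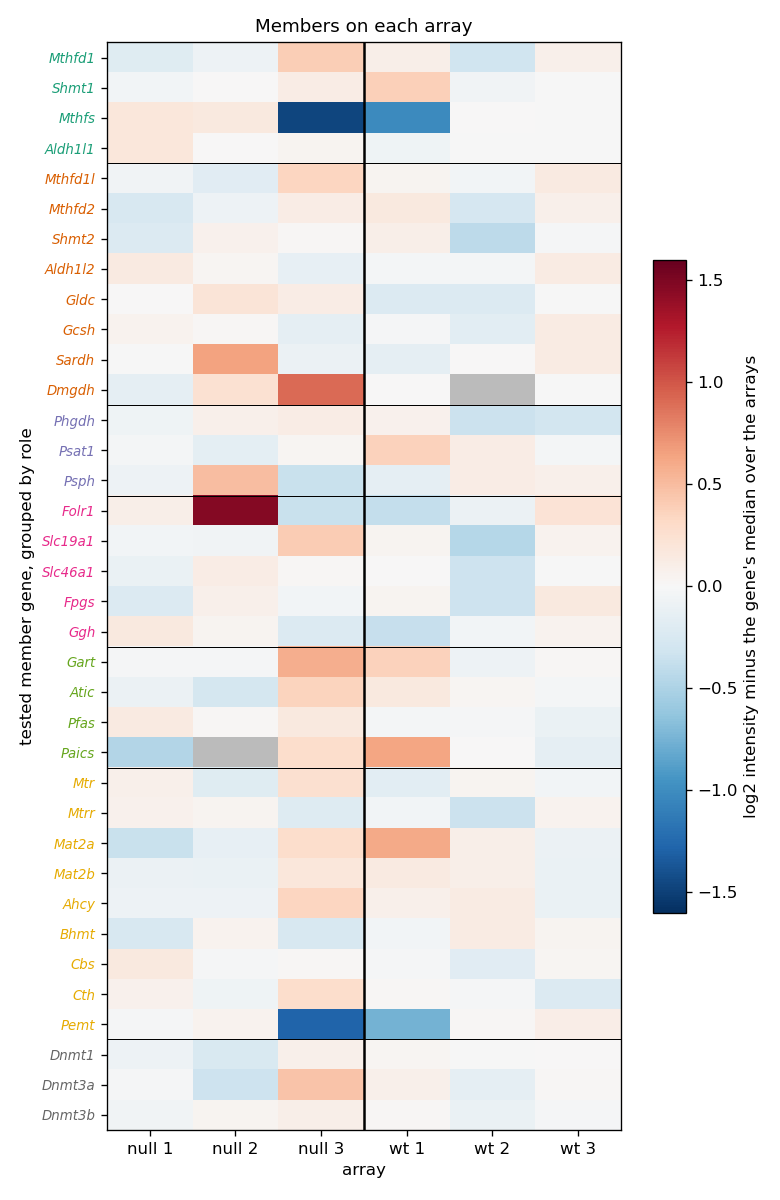
Log2 intensity of each tested member minus its median over the arrays, one row per gene in role order, Splotch null arrays left of the line and wild type arrays right of it; grey cells are spots left out. Mthfs and Pemt are low on Splotch null 3 and wild type 1, and Folr1 and Sardh are high on Splotch null 2.

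Over the 6 arrays the median member spanned 0.50 on the log2 scale, against 0.52 over all genes, and the median SD was 0.19 among Splotch null arrays and 0.15 among wild type arrays. Splotch null 3 was the highest array for 15 members, and wild type 2 the lowest for 13. The same counts were not made over all genes, so these are not shown to be particular to the members.

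Of 44 other genes of the pathway, 41 had a probe and 36 were tested. Of these, 19 were higher and 17 lower in Splotch null embryos, with a median difference of 0.02. Dctd, a deaminase that feeds thymidylate synthesis, was the 1 gene with an unadjusted p under 0.05, beside 0.413% of all genes that were lower at that threshold. It had 10.92, 11.08 and 10.94 on Splotch null arrays, against 11.36, 11.28 and 11.20 on wild type arrays, with a difference of -0.30 (SE 0.12) and an adjusted p of 0.9998. Every Splotch null array was below every wild type array. Elsewhere Izumo1r and Mthfsd differed by 0.26 and -0.21, and Tcn2 and Cd320, which bring cobalamin into cells, by 0.33 and -0.15. Aldh7a1 and Prmt1 differed by 0.28 and -0.17, Ppat, the first enzyme of purine synthesis, by -0.25, and Tet1 and Uhrf1 by 0.21 and 0.15. Second probes gave -0.19 for Uhrf1 and 0.04 for Cd320, opposite in sign to the first, and -0.02 for Ppat. The groups overlapped for each of these.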

How the data were processed

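RNA of 3 Splotch null and 3 wild type posterior embryos was hybridised to 6 arrays. Per the file headers, the authors' scanner software was CodeLink Expression Analysis 5.0.0.31312; the raw intensity they deposited was background-subtracted by a method not given in the sources used here. Good, near-background and saturated spots (flags G, L and S) were used, and 277 to 422 per array were left out. Raw intensity was floored at 0, given an offset of 50, log2-transformed and normalized by quantiles. The offset understates changes of dim genes. Probes good or saturated on 3 or more arrays entered limma 3.58.1 (R 4.3.3; lmFit, then eBayes, without covariates), and figures were drawn with matplotlib 3.10.9. A gene was represented by its tested probe with the highest mean. Apart from that choice, no probe's level was set against another's. Summed marker intensities give more weight to bright probes.

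Probes were named from platform annotation updated by gene identifier to GRCm38.p6 symbols (21487), kept at the platform symbol (128), named from the accession (535) or from the scanner report's description (419); 681 with several names and 11717 with none stayed unnamed. Naming from descriptions was added after Mmachc was seen to have no name, and the older symbol of Mmut was updated after the first run. The members and lists were chosen with earlier results of these data known. Array values were printed for members without overlap between genotypes, the 2 of each role with the smallest p and the 6 of widest range, and up to 2 genes of each other group with the smallest p were named. The procedure was tested on simulated data. The alternatives covered normalization, offset, filter, variance model, array weights, covariate, probe choice and arrays left out. Marker lists for erythroid cells, endothelium, surface ectoderm and proliferation were also measured, over the markers with a value on all arrays: their summed intensity ranged over 40669 to 53355, 3520 to 7073, 9062 to 13638 and 77052 to 111270 on Splotch null arrays, against 28651 to 53121, 5138 to 7089, 10936 to 14251 and 82395 to 103540 on wild type arrays. Neural tube markers summed to 3699 to 11282 on Splotch null arrays, against 5403 to 8765 on wild type arrays, and tail bud markers to 9756 to 14121, against 10069 to 11565. The headers give no batch.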

Additional observations from a re-analysis of the deposited data

How the results depend on the processing

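No paired analysis was possible because replicate numbers follow accession order and pair no arrays. Under 17 alternatives no member passed an adjusted p of 0.05, 0 probes did wherever probes were counted, and 12 of 36 members kept their sign: Aldh1l1, Gldc, Phgdh, Psat1, Slc19a1, Slc46a1, Pfas, Mat2a, Bhmt, Cbs, Cth and Dnmt1. The other 24 changed sign at least once; the cause was not tested. The count of higher members ran from 17 to 26 and their median from -0.0075 (without wild type 2) to 0.087. The share of all genes that were higher was not counted under the alternatives. Members with unadjusted p under 0.05 numbered 7 with array weights, whose fit did not converge fully, and 2 with the array median as covariate; over all genes these settings gave 2853 and 688, against 207. Members without overlap and higher numbered 1 of 34 in the authors' deposited value table (4.04% of all genes), 2 with median scaling (4%) and 2 with probes averaged per gene (3.4%). Non-overlap is more frequent with fewer arrays: 6 of 34 members were higher without Splotch null 1 (5.91% of all genes), 4 without wild type 1 (7.13%), 4 without wild type 3 (8.85%), 5 of 35 without Splotch null 2 (6.69%) and 3 of 35 without wild type 2 (5.12%). Without Splotch null 3, 4 of 34 were higher (14.8%) and 5 lower (10.9%), and without the brightest arrays 5 were higher (19.3%) and 5 lower (14.7%); other settings gave 0 or 1 lower. Alternatives for Pax3 and for these counts were chosen after seeing the data.

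Median scaling turned Mthfs to 0.020, Mthfd1l to 0.015, Gcsh to 0.042, Psph to 0.059 and Mat2b to 0.0023. The authors' deposited value table turned Mthfs to 0.021, Mthfd1l to 0.017, Gcsh to 0.043, Psph to 0.060, Fpgs to 0.0015 and Mat2b to 0.0041. Array weights turned Mthfs to 0.24, Aldh1l2 to 0.13, Gcsh to 0.15, Dmgdh to -0.073, Fpgs to 0.029, Ahcy to -0.16 and Pemt to 0.021. The mean of a gene's probes turned Dnmt3b to -0.16, an offset of 200 turned Psph to 0.0010, and the covariate turned Mthfd1l to 0.0095. Without the brightest array of each genotype, Pax3 was at -0.054, Mthfd1 at -0.024, Shmt1 at 0.0090, Mthfs at 0.17, Aldh1l2 at 0.032, Gcsh at 0.054, Psph at 0.11, Fpgs at 0.019, Mtr at -0.056, Ahcy at -0.097 and Dnmt3a at -0.12. Leaving out 1 array at a time gave ranges that crossed 0: Pax3 -0.051 to 0.35, Shmt1 -0.17 to 0.056, Mthfd2 -0.19 to 0.032, Fpgs -0.17 to 0.081, Ggh -0.015 to 0.22, Mthfd1 -0.092 to 0.20, Mthfs -0.38 to 0.51, Shmt2 -0.077 to 0.18, Psph -0.24 to 0.19, Gart -0.11 to 0.22, Mtrr -0.039 to 0.17, Dnmt3a -0.16 to 0.23, Mthfd1l -0.16 to 0.10, Paics -0.64 to 0.12, Aldh1l2 -0.073 to 0.062, Gcsh -0.087 to 0.067, Ahcy -0.12 to 0.095, Sardh -0.042 to 0.32, Folr1 -0.044 to 0.87, Atic -0.24 to 0.082, Mtr -0.0056 to 0.22 and Pemt -0.47 to 0.24.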
